A study of Mus musculus with 29 samples.

Results

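The nuclear-encoded respiratory chain genes were examined as a group of 93 protein-coding genes out of 21911 on the mouse autosomes, X and Y. They were chosen by symbol alone, as all genes whose names begin with Nduf, Uqcr, Cox4i, Cox5, Cox6, Cox7, Cox8 or Atp5, together with Sdha, Sdhb, Sdhc and Sdhd. The rule uses no measured value, and the other 21818 protein-coding genes served as the background. The data are ChIP-seq peak lists of transcription factors carrying a C-terminal 3xHA tag, expressed in NIH-3T3 cells, a line of mouse embryonic fibroblasts. All lines carried the rtTA3G activator and a lentiviral transgene of the factor under the TRE3G promoter, induced overnight with 500 ng/ml doxycycline. Chromatin of cells fixed with 1% formaldehyde was precipitated with an antibody to HA.

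Of the 29 labelled samples, 28 had a peak list, and input chromatin from wild-type cells was the other. The lists belonged to 24 constructs. These were BHLHB8, BRACHYURY, CDX2, DLX1, DLX6, DUXBL, EBF1, FOXA1, HLF, MAX, NANOG, OCT4, PRR3, RHOX11, SIX6, SOX15, SOX2, TEAD1, THAP4, TOX3 and ZFP319, each as an HA fusion, the FOXA1 mutants RR and SW made to bind DNA less nonspecifically, and OCT4-HA expressed together with SOX2-YPet. Duplicate lists existed for SOX2-HA, OCT4-HA, BHLHB8-HA and FOXA1-HA, and each of the remaining 20 constructs had 1 list and so no replicate error. Expression of the endogenous genes was not measured in these files, so the binding of an overexpressed factor near a gene says nothing here about that gene's activity, and the cell type could not be checked by its markers. The lists ranged from 52 to 61991 peaks. They hold positions without scores or read numbers, so the sequencing depth behind each is unknown.

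The respiratory chain passes electrons from NADH and succinate to oxygen along complexes in the inner mitochondrial membrane, and the proton gradient built across that membrane drives ATP synthesis. Complex I oxidises NADH, complex II oxidises succinate, complex III hands electrons to cytochrome c, complex IV reduces oxygen, and complex V is the ATP synthase. Most subunits are encoded in the nucleus and are made in nearly all cells, and their promoters are textbook targets of the factors NRF1 and NRF2 (GABP), of YY1 and of SP1. None of these factors is among the 24 constructs. A gene was counted as having a promoter peak of a construct when the midpoint of at least 1 peak lay within 1 kb of the start of one of its protein-coding transcripts.

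The promoters of 6 members named in the results are shown. Ndufb3, Ndufa6 and Atp5l had promoter peaks of the most constructs, Sdhb was the only complex II gene without a peak of BHLHB8-HA, and Cox6b2 and Cox7a1 encode tissue-restricted isoforms without any peak. The sequences are from RefSeq on GRCm38.p6, read 5′ to 3′ on the strand of the gene, from 250 bases before to 50 bases after the RefSeq start. In capitals are matches, on either strand, to 8 motifs that were searched: NRF1 (GCGCATGC), ETS as bound by GABP (CCGGAAG), YY1 (AAGATGGCG), SP1 (GGGCGG), CRE (TGACGTCA), the MAX E-box (CACGTG), TEAD (CATTCC) and AP-1 (TGACTCA or TGAGTCA).
Ndufb3, chr1:58586147-58586446, plus strand: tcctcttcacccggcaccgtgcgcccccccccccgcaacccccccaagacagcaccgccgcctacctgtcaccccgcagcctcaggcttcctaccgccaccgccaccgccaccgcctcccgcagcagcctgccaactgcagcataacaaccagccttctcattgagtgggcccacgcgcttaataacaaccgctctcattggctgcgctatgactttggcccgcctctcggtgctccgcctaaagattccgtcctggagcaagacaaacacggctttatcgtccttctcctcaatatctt
Ndufa6, chr15:82354242-82354541, minus strand: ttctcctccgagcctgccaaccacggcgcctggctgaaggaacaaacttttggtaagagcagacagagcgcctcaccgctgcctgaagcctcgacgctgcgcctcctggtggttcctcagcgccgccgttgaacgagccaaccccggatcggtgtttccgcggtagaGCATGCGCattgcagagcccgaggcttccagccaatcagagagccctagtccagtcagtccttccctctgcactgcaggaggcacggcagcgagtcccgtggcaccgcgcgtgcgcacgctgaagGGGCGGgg
Atp5l, chr9:44920693-44920992, minus strand: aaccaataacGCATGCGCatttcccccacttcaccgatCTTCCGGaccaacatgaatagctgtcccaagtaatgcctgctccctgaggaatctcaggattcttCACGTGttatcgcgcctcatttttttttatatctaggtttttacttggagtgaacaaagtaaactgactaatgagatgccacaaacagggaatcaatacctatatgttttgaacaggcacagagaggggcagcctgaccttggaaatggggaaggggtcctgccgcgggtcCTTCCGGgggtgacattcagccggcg
Sdhb, chr4:140961021-140961320, plus strand: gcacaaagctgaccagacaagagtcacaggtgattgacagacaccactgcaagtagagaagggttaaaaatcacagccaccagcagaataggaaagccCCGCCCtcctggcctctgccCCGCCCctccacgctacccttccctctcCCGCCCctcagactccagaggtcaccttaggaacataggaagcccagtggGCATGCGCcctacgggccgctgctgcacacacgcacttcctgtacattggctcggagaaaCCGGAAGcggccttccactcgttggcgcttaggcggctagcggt
Cox6b2, chr7:4753045-4753344, minus strand: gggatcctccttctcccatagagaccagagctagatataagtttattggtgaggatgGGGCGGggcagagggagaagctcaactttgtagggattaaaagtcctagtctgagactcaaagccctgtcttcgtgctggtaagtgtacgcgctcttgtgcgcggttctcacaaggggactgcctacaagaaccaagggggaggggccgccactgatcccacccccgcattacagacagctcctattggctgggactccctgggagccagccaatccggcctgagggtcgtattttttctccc
Cox7a1, chr7:30183921-30184220, plus strand: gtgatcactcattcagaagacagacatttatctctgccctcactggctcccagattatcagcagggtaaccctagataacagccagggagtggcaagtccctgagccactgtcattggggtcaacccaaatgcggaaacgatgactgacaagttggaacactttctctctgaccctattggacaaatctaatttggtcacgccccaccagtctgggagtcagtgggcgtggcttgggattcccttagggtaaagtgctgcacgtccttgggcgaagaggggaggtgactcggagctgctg

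An NRF1 match stood on the opposite strand 83 to 76 bases before the start in Ndufa6, 240 to 233 before it in Atp5l and 54 to 47 before it in Sdhb. ETS matches were present in Atp5l and Sdhb, the latter from base 7 to base 13 after the start. Atp5l also held an E-box 147 to 142 bases before the start. The Ndufb3 and Cox7a1 windows held no match to any of the 8 motifs, and Cox6b2 held 1 match to SP1. A match is a description of the letters in a 300-base window and not a bound site. Many peaks of these genes lay outside the windows. At Atp5l only the DLX6-HA peak reached its window. The DLX6-HA, EBF1-HA and FOXA1-HA replicate 2 peaks of Ndufa6 lay outside, as did those of HLF-HA, SIX6-HA and OCT4-HA with SOX2-YPet at Ndufb3.

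Of the 93 respiratory chain genes, 77 had a promoter peak of at least 1 construct (82.8%, 95% exact interval 73.6 to 89.8), against 60.3% of the other genes. Peaks of 3 or more constructs were found at 28 members (30.1%) against 23.3% of the other genes, and peaks of 5 or more at 6 members (6.45%) against 6.22%. The difference from the background thus fell from 22.5 percentage points at 1 construct to 6.8 at 3 and 0.237 at 5. The median member had peaks of 2 constructs and the median other gene of 1, and 22 members (23.7%) against 9.9% of the other genes had a peak of BHLHB8-HA and of nothing else. Without BHLHB8-HA the shares were 59.1% against 50.4% for any construct and 14% against 12.5% for 3 or more. No member reached 10 constructs, which 0.234% of the other genes did. Intervals here and below treat genes as independent draws and cover counting over genes only. They do not cover differences between libraries.

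The 4 constructs with promoter peaks at 10 or more members accounted for 133 of the 182 pairs of a member and a construct. They were BHLHB8-HA, RHOX11-HA, TEAD1-HA and DLX1-HA. BHLHB8, also called MIST1, is a basic helix-loop-helix factor of secretory cells. RHOX11 is a homeobox protein of the reproductive X-linked cluster, TEAD1 is the DNA-binding partner of YAP, and DLX1 is a distal-less homeobox protein.

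BHLHB8-HA had a promoter peak at 49 members in replicate 1 (52.7%), against 33% of the other genes, and at 66 members in replicate 2 (71%), against 43.3%. The mean was 61.8% ± 12.9 for the members and 38.2% ± 7.32 for the other genes (SD, n = 2 libraries). The members' share was higher than the background in both libraries, by 19.7 and 27.6 percentage points. Both shares were higher in replicate 2, so the SD of each share does not measure the spread of this gap. With both lists together the count was 69 members (74.2%) against 46.9%. Of the 49 members found in replicate 1, 46 were also found in replicate 2 (93.9%), and the corresponding share among the other genes was 89.4%. Of the genes found in either replicate, 66.7% of the members and 62.9% of the other genes were found in both.

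RHOX11-HA showed the largest ratio to the background among the 4 constructs. It had a promoter peak at 30 members (32.3%, interval 22.9 to 42.7) against 11.1% of the other genes, a ratio of 2.92. TEAD1-HA was lower at the members than elsewhere, with 18 members (19.4%, interval 11.9 to 28.9) against 32.2%, a ratio of 0.602. Its list thus had promoter peaks at more of the other genes than RHOX11-HA had, but at fewer of the respiratory chain genes. DLX1-HA had promoter peaks at 16 members (17.2%, interval 10.2 to 26.4) against 12.9%, and this interval includes the background share. These 3 constructs have 1 library each, so the spread between libraries is unknown for them.

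**Figure D1:**
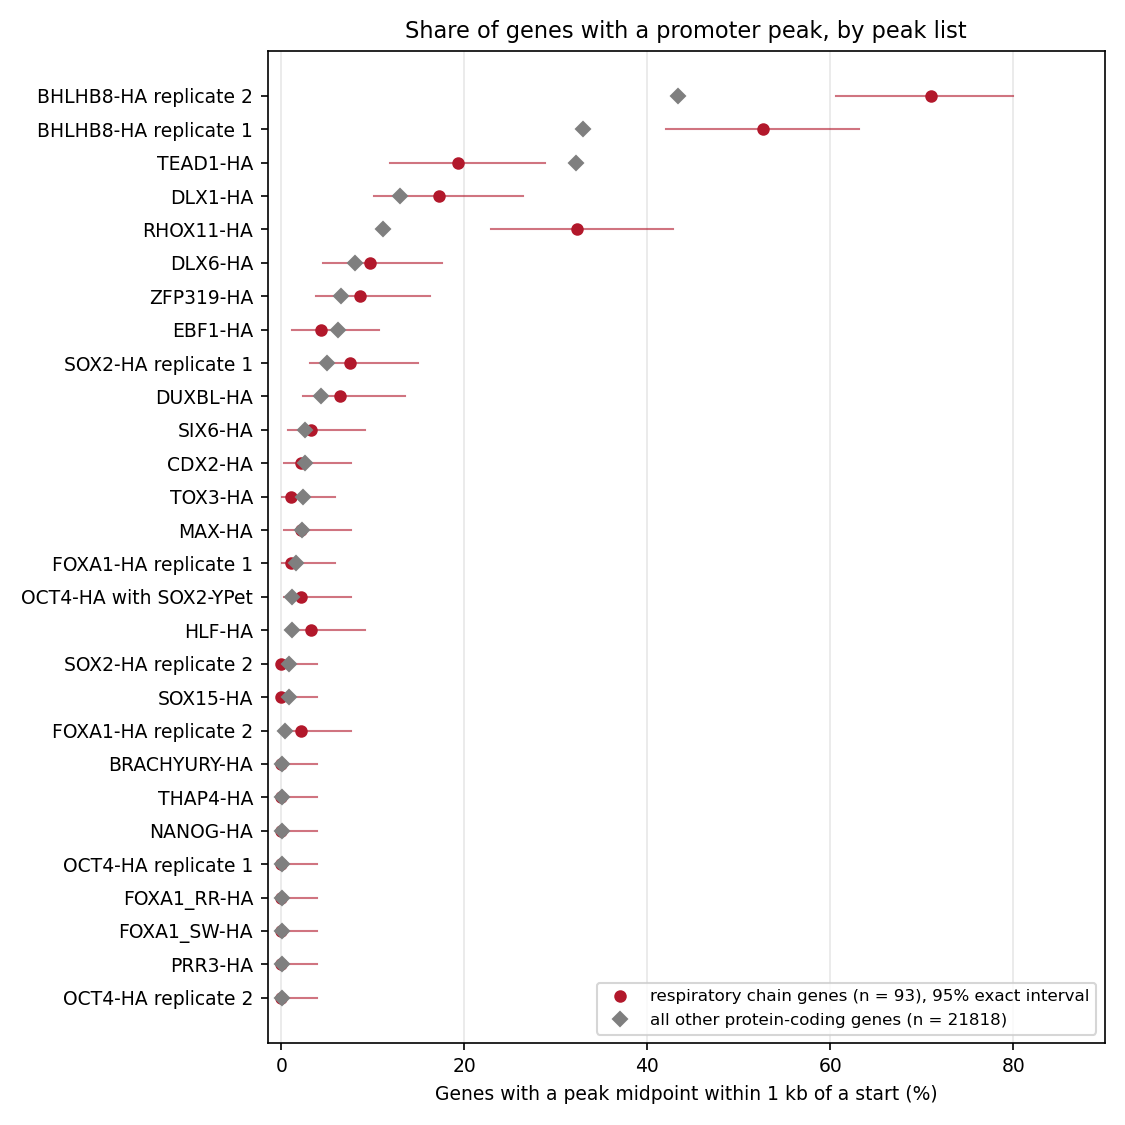
Share of genes with a promoter peak in each of the 28 lists, on the horizontal axis in percent. Circles are the 93 respiratory chain genes with 95% exact intervals, and diamonds are the 21818 other protein-coding genes. The circles lie clearly to the right of the diamonds for both BHLHB8-HA lists and RHOX11-HA, to the left for TEAD1-HA, and near them elsewhere.

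Smaller numbers of members carried peaks of the remaining constructs. DLX6-HA had promoter peaks at 9 members (9.68%) against 8.05% of the other genes, ZFP319-HA at 8 members (8.6%) against 6.51%, DUXBL-HA at 6 members (6.45%) against 4.27% and EBF1-HA at 4 members (4.3%) against 6.23%. In each of these 4 lists the members' interval includes the background share. HLF-HA, a PAR bZIP factor, had peaks at Cox5b, Ndufb3 and Ndufc2 (3.23%) against 1.16%, and SIX6-HA at Ndufb3, Ndufs4 and Uqcr11 (3.23%) against 2.6%. CDX2-HA had peaks at Atp5g2 and Atp5mpl (2.15%) against 2.53%. MAX-HA, the dimerisation partner of MYC, had peaks at Ndufa6 and Ndufs1 (2.15%) against 2.26%. Only these members had FOXA1-HA peaks, and the MAX-HA and FOXA1-HA peaks overlapped at both genes. OCT4-HA with SOX2-YPet had peaks at Cox7c and Ndufb3 (2.15%) against 1.17%, and TOX3-HA had a peak at Atp5s (1.08%) against 2.36%. From HLF-HA (interval 0.67 to 9.14) to TOX3-HA, the members' interval includes the background share in each list.

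The duplicates of SOX2-HA and FOXA1-HA differed. SOX2-HA replicate 1 had promoter peaks at 7 members (7.53%) against 4.93% of the other genes. Replicate 2 had peaks at none (0 of 93, interval up to 3.89%) against 0.839%. The mean was 3.76% ± 5.32 for the members (SD, n = 2), and the count over both lists was 7 against 5.01%. FOXA1-HA replicate 1 had a peak at Ndufa6 only (1.08%) against 1.62%, and replicate 2 at Ndufa6 and Ndufs1 (2.15%) against 0.344%. Over both lists the background was 1.74% for the same 2 members. The background share of replicate 1 was the higher and the members' share the lower, so the lists give no common direction.

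No member had a promoter peak in the lists of 8 constructs, and for each of them 0 of 93 allows a share of up to 3.89%. The background was 0.784% for SOX15-HA, 0.115% for BRACHYURY-HA, 0.0688% for THAP4-HA, 0.0642% for NANOG-HA, 0.0504% for FOXA1_RR-HA, 0.0458% for FOXA1_SW-HA and 0.0321% for PRR3-HA. OCT4-HA had 0.055% in replicate 1, 0.0138% in replicate 2 and 0.055% over both. At such shares fewer than 1 of 93 genes would carry a peak, so these lists cannot distinguish the members from the background.

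In complex V, against a background of 46.9%, all 16 genes had a promoter peak of BHLHB8-HA over both lists, 14 of them in replicate 1 and 15 in replicate 2. The 16 include subunits of the F1 head (among them Atp5a1 and Atp5b), the 3 genes of the c ring (Atp5g1, Atp5g2 and Atp5g3) and the stator subunit OSCP (Atp5o). RHOX11-HA had peaks at 7 of these 16 genes (43.8%, interval 19.8 to 70.1, against a background of 11.1%), namely Atp5d, Atp5e, Atp5g1, Atp5h, Atp5j, Atp5l and Atp5o. TEAD1-HA had peaks at 5 (31.2%, near its background of 32.2%), namely Atp5a1, Atp5g2, Atp5g3, Atp5h and Atp5j.

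The 7 core subunits of complex I encoded in the nucleus make up its catalytic arm, which carries the flavin and the iron-sulfur clusters, and are conserved from bacteria. All 7 had a promoter peak of BHLHB8-HA (interval 59 to 100) against a background of 46.9%, with 6 in each replicate. RHOX11-HA had peaks at 5 (71.4%, interval 29 to 96.3) against 11.1%. These included Ndufs1, Ndufs7, Ndufs8, Ndufv1 and Ndufv2. TEAD1-HA had a peak at Ndufv2 (14.3%, interval 0.361 to 57.9) against 32.2%. DLX1-HA had peaks at Ndufv1 and Ndufv2 (28.6%, interval 3.67 to 71) against 12.9%. For TEAD1-HA and DLX1-HA the interval includes the background share. Of the 29 accessory subunits of complex I, 22 had a peak of BHLHB8-HA (75.9%, interval 56.5 to 89.7) and 10 of RHOX11-HA (34.5%, interval 17.9 to 54.3). TEAD1-HA had peaks at 5 (17.2%, interval 5.85 to 35.8), and this interval includes its background of 32.2%. Of the 8 Ndufaf genes, which encode assembly factors and no subunits, 6 had a peak of BHLHB8-HA (75%, interval 34.9 to 96.8). RHOX11-HA had a peak at 1 (Ndufaf7) and TEAD1-HA at 1 (Ndufaf8), each with an interval of 0.316 to 52.7. These intervals include the backgrounds. Ndufaf1 and Ndufaf6 had no peak of any construct.

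Complex II also works in the tricarboxylic acid cycle as succinate dehydrogenase, with a flavoprotein (Sdha), an iron-sulfur protein (Sdhb) and a membrane anchor (Sdhc and Sdhd). Each of its 4 genes had a promoter peak of exactly 1 construct. Sdha had BHLHB8-HA peaks centred 360 bp upstream of the nearest start in replicate 1 and 187 bp upstream in replicate 2. Sdhc had peaks 94.5 and 151.5 bp downstream in these replicates. Sdhd had a peak 63.5 bp downstream in replicate 1 and 54 bp upstream in replicate 2. Sdhb had no BHLHB8-HA peak, and its only peak, of SOX2-HA replicate 1, was centred 920.5 bp downstream of the start, near the edge of the window and outside the promoter printed above. Complex II had no peak of RHOX11-HA, TEAD1-HA or DLX1-HA, for which 0 of 4 genes allows up to 60.2%.

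Complex III is the cytochrome bc1 complex. The symbol rule took in 8 of its genes and left out Cyc1, which is given below. BHLHB8-HA had promoter peaks at 5 of the 8 (62.5%, interval 24.5 to 91.5) against a background of 46.9%. RHOX11-HA, TEAD1-HA and DLX1-HA had peaks at 3 each (37.5%, interval 8.52 to 75.5) against 11.1%, 32.2% and 12.9%. All of these intervals include the background share. TEAD1-HA and DLX1-HA shared all 3 of theirs, namely Uqcrfs1, which encodes the Rieske iron-sulfur protein, Uqcrh and Uqcrq, and BHLHB8-HA was present at the same genes. Uqcr11 had a peak of SIX6-HA and Uqcr10 a peak of RHOX11-HA, and neither had any other. Uqcrb had none.

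Complex IV had the lowest share of the 5 complexes for BHLHB8-HA and for any construct. With Ndufa4, which is a subunit of this complex despite its name, and its paralogue Ndufa4l2, it counted 19 genes. BHLHB8-HA had promoter peaks at 8 of them (42.1%, interval 20.3 to 66.5) against 46.9% of the genes outside the chain, and 12 had a peak of any construct (63.2%) against 60.3%. Both intervals include the background share. All 8 genes taken here as restricted isoforms belong to this complex, with several made in muscle, testis or lung in place of a widely made counterpart. Ndufa4l2 was taken in as the paralogue of Ndufa4. Of the 8 genes for restricted isoforms, 2 had a promoter peak of any construct (25%, interval 3.19 to 65.1), against 6 of the 7 counterparts (85.7%, interval 42.1 to 99.6), and the intervals overlap. The starts of all 8 were not CpG-rich, as defined below, whereas those of the counterparts Cox4i1, Cox6a1, Cox8a and Ndufa4 were. Of the other genes whose starts were not CpG-rich, 41.7% had a peak of any construct. The part of base composition in this contrast was not tested. Cox7b2 had peaks of DLX6-HA and RHOX11-HA, and Cox8c had a peak of BHLHB8-HA in replicate 2, centred 0.5 bp from its start. Cox4i2, Cox6a2, Cox6b2, Cox7a1, Cox8b and Ndufa4l2 had none.

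Among the counterparts, Cox4i1 had peaks of BHLHB8-HA, DLX1-HA and TEAD1-HA, and Ndufa4 of BHLHB8-HA, EBF1-HA and TEAD1-HA. Cox7a2 and Cox8a had peaks of BHLHB8-HA only, Cox6a1 of RHOX11-HA only and Cox6b1 of DUXBL-HA only. Cox7b had none, with the nearest peak of any list 4109 bp away. It is X-linked, as are Ndufa1 and Ndufb11, and all 3 X-linked members were without a peak. Peaks on the X chromosome were few throughout (0.89% of all peaks), and 22% of the other X-linked genes had a promoter peak, against 62.6% of those on chromosomes 1 to 19. The nearest peaks of Ndufa1 and Ndufb11 lay 80652.5 and 55463.5 bp away. The 16 members without any peak also included Ndufa3, Ndufa11, Ndufb10 and Ndufv3 of complex I.

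**Figure D2:**
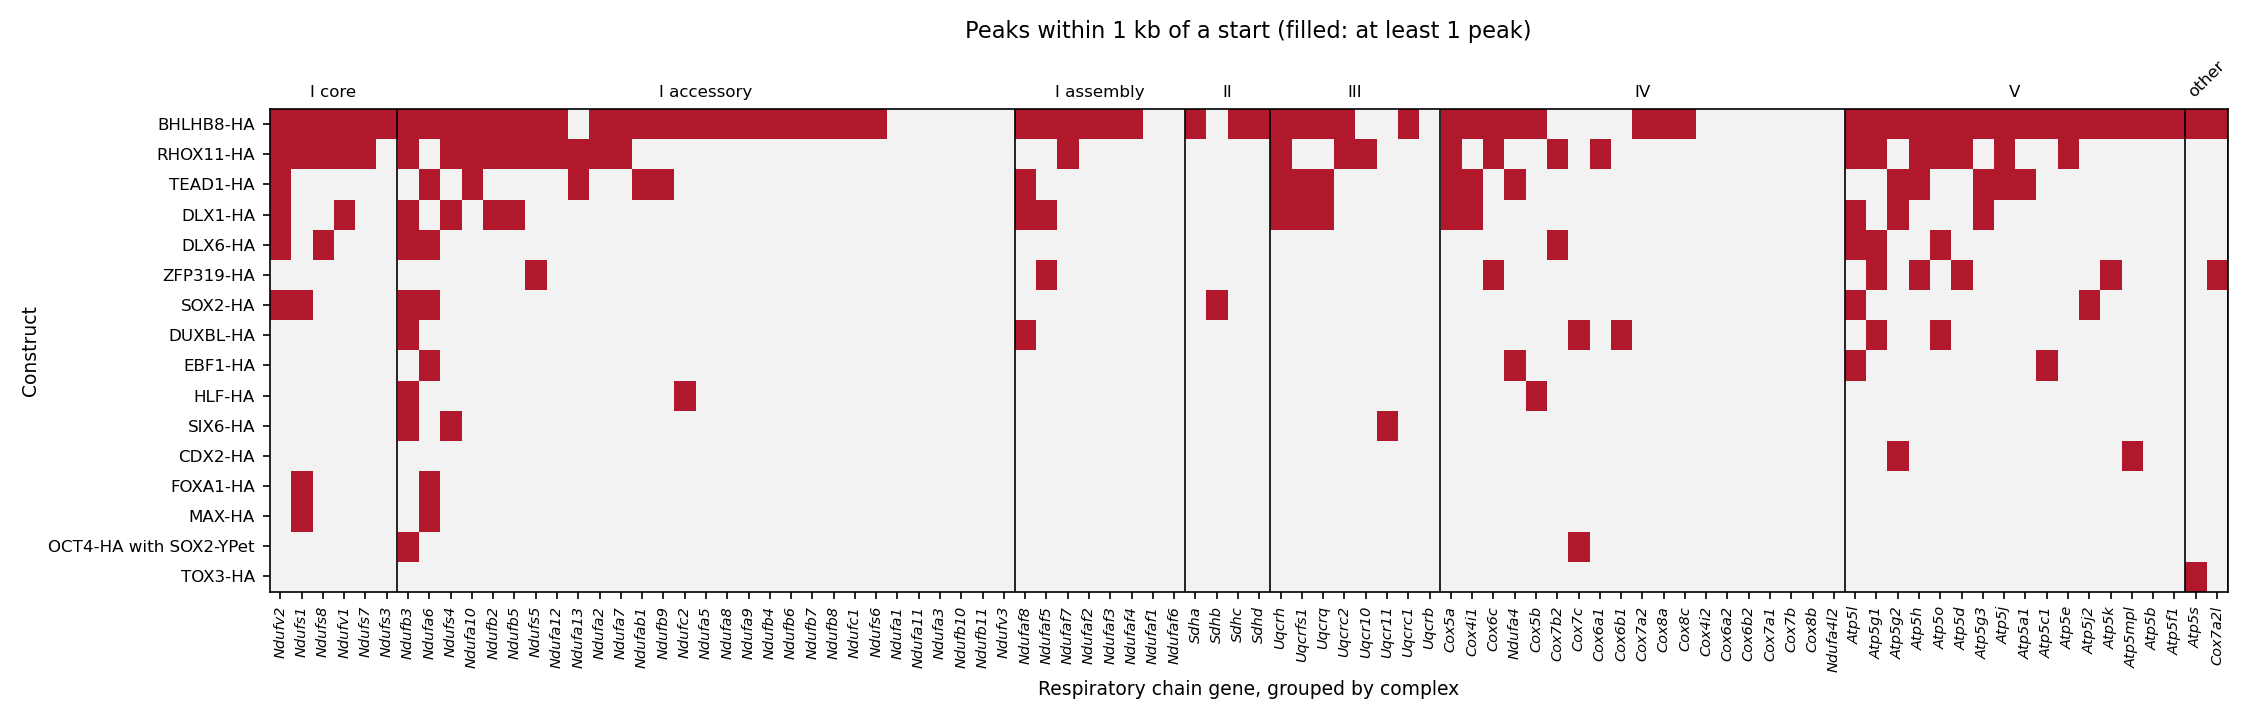
The respiratory chain genes (92 drawn), in columns grouped by complex, against the 16 constructs with a promoter peak at 1 or more of them, in rows. A filled cell is at least 1 peak midpoint within 1 kb of a start, and the BHLHB8-HA row is filled throughout complex V and the complex I core but broken in complex IV.

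Ndufb3, an accessory subunit of complex I, had promoter peaks of the most constructs, 9, a number that 0.458% of the other genes reached or passed. Its 9 peaks were those of BHLHB8-HA (replicate 2 only), DLX1-HA, DLX6-HA, DUXBL-HA, HLF-HA, RHOX11-HA, SIX6-HA, SOX2-HA (replicate 1 only) and OCT4-HA with SOX2-YPet. They touched to form one stretch of 1223 bp, chr1:58585649-58586871, over the start of the gene, which lies at chr1:58586384-58595964 on the plus strand. The midpoints of 6 lay within 300 bp downstream of the start, and that of HLF-HA lay farthest upstream, at 590 bp. The start of Fam126b is within 1 kb, so the peaks cannot be assigned to one of these genes.

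Ndufa6, at chr15:82350140-82354322 on the minus strand, encodes an accessory subunit of complex I and had 9 peaks of 7 constructs. Its upstream peaks were grouped. FOXA1-HA was centred 454 and 463 bp upstream in its replicates, MAX-HA 452.5 bp, SOX2-HA 345 bp, EBF1-HA 610 bp and DLX6-HA 636 bp upstream. TEAD1-HA was centred 89.5 bp downstream of the nearest start, and the BHLHB8-HA peaks, 187 and 159 bp upstream, were 903 and 787 bp wide and overlapped both the upstream peaks and that of TEAD1-HA. It was the only member with FOXA1-HA peaks in both replicates.

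Atp5l (subunit g of complex V, chr9:44912557-44920742, minus strand) and Ndufv2 (a core subunit of complex I, chr17:66078638-66101559, minus strand) each had 7 peaks of 6 constructs. At Atp5l the peaks of 6 constructs joined in a stretch of 679 bp, chr9:44920900-44921578, that began upstream of the start, and their midpoints were 431.5 to 703 bp upstream. The BHLHB8-HA replicates did not coincide there, with midpoints 678.5 bp upstream and 303 bp downstream. At Ndufv2 the DLX1-HA, SOX2-HA, DLX6-HA and RHOX11-HA peaks were centred 615.5, 375.5, 311 and 272 bp upstream, and the TEAD1-HA peak 6.5 bp downstream.

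**Figure D3:**
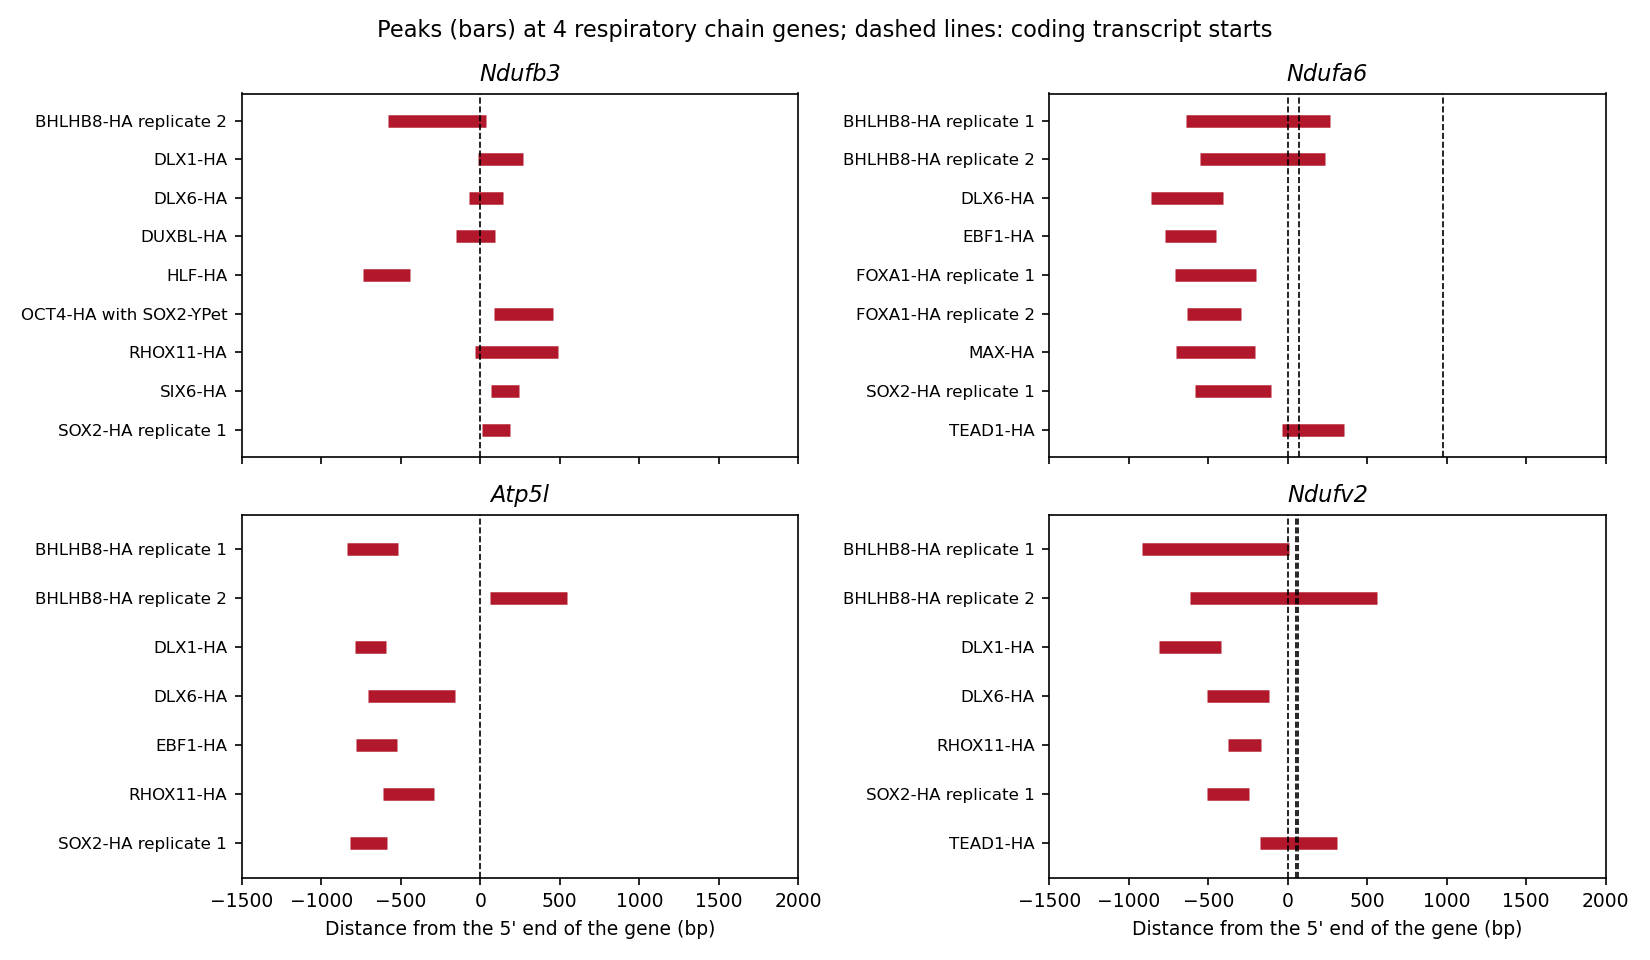
Peaks at Ndufb3, Ndufa6, Atp5l and Ndufv2, drawn to scale as bars along the distance in bp from the 5′ end of the gene, with transcription to the right, 1 row per list. Dashed lines mark the starts of protein-coding transcripts. The bars stack over the start at Ndufb3 and mostly upstream of it at Atp5l.

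Ndufs1, the largest subunit of complex I, had 8 peaks of 5 constructs, of which FOXA1-HA replicate 2, MAX-HA and RHOX11-HA were centred 11.5 bp downstream, 12 bp upstream and 20.5 bp upstream of a start. Atp5g1 had peaks of 5 constructs, and Atp5g2, Atp5h, Atp5o and Cox5a of 4 each. These complete the 10 members taken by number of constructs, then of peaks, then by symbol. Ndufaf8 and Ndufs4, with 4 constructs and 5 peaks each, tie with Atp5h, Atp5o and Cox5a, and Uqcrh also had 4 constructs. Having 4 or more constructs is not unusual, as 12.1% of the other genes did. Another gene's start lay within 1 kb for Ndufs1 (Eef1b2), Atp5h (Kctd2), Ndufaf8 (Tepsin) and Uqcrh (Lrrc41). The peaks there cannot be assigned to one gene of each pair.

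Most members with a peak of DLX1-HA, TEAD1-HA or RHOX11-HA also had a peak of BHLHB8-HA. BHLHB8-HA was at 74.2% of all members and 46.9% of the other genes, so overlap with it was frequent in general. All 16 members with a DLX1-HA peak, 17 of the 18 with a TEAD1-HA peak and 26 of the 30 with a RHOX11-HA peak also had a BHLHB8-HA peak. Among the other genes these shares were 97.9%, 70.3% and 90.9%. RHOX11-HA and TEAD1-HA had 7 members in common, 23.3% of the RHOX11-HA members and 38.9% of the TEAD1-HA members. Over all members TEAD1-HA was at 19.4% and RHOX11-HA at 32.3%. For the other genes the shares in common were 42.8% and 14.7%. Ndufv2, Uqcrh and Cox5a were the members with peaks of all 4.

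RHOX11-HA peaks at the members lay close to the start. Of its 30 peaks, 17 (56.7%) had their midpoint within 100 bp of a start and 22 (73.3%) lay upstream, with a median position 32.25 bp upstream. At the other genes 54.7% of the peaks lay within 100 bp and 61.3% upstream, with a median 33.5 bp upstream. TEAD1-HA peaks had their median 67.25 bp downstream at the members and 105.5 bp downstream elsewhere. BHLHB8-HA peaks had medians 81 bp upstream in replicate 1 and 15.5 bp downstream in replicate 2, against 4.5 bp upstream and 85.5 bp downstream at the other genes.

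DLX1-HA peaks at the members stood farther upstream, with 13 of 16 peaks upstream and a median of 351.75 bp, against 53.1% upstream and a median of 27.75 bp upstream elsewhere. This rests on 16 peaks of 1 library. The peaks were narrow, with median widths at the members of 259.5 bp for DLX1-HA, 252.5 bp for RHOX11-HA, 380.5 bp for TEAD1-HA, and 316.5 and 532 bp for the BHLHB8-HA replicates.

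**Figure D4:**
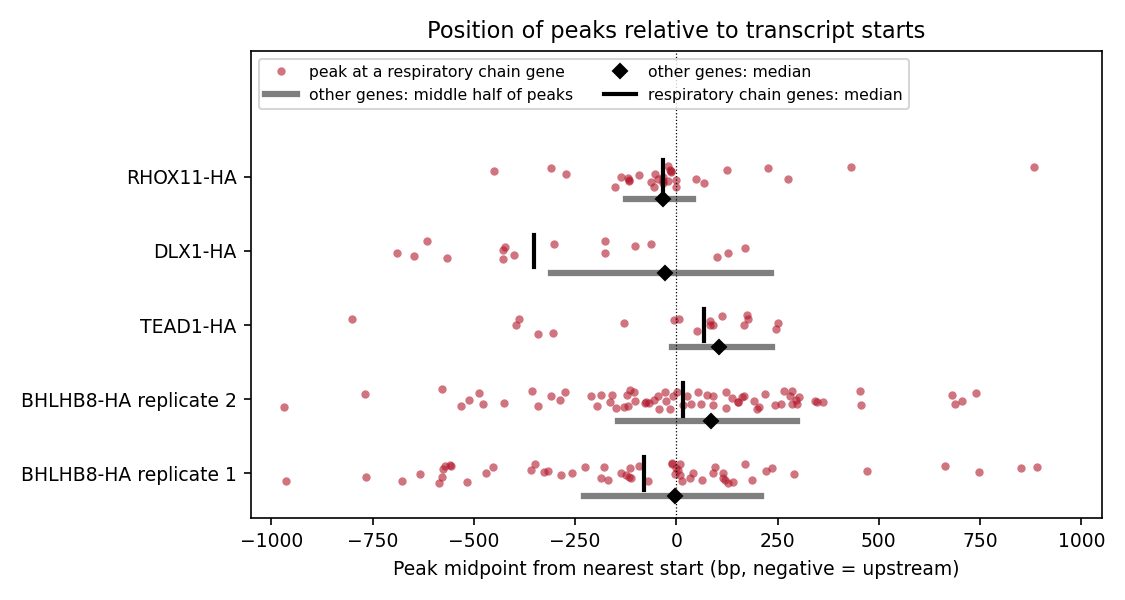
Distance in bp from the peak midpoint to the nearest protein-coding start, negative upstream, for 5 lists. Circles are peaks at respiratory chain genes and upright lines their medians, and grey bars and diamonds give the middle 50% and the median for the other genes. RHOX11-HA circles crowd at the start, and most DLX1-HA circles lie upstream.

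The starts of the respiratory chain genes differed from those of other genes in ways that move with promoter peaks. A start was called CpG-rich when the 500 bp on either side of the 5′ end of the gene had at least 55% G and C and an observed to expected CpG ratio of at least 0.6. By this measure 54 members were CpG-rich (58.1%), against 38.3% of the other genes. Among CpG-rich starts alone, 92.6% of the members and 90.3% of the other genes had a peak of any construct. RHOX11-HA was then at 33.3% against 18.3%, BHLHB8-HA at 87% against 70%, and TEAD1-HA at 29.6% against 64.3%, so that the TEAD1-HA gap widened to 34.7 percentage points. Among the 39 members whose starts were not CpG-rich, the shares were 30.8% against 6.58% for RHOX11-HA, 56.4% against 32.5% for BHLHB8-HA and 5.13% against 12.2% for TEAD1-HA. The part of base composition in the differences was not tested.

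The start of another protein-coding gene lay within 1 kb for 35 members (37.6%) against 13.1% of the other genes. In that class the shares of members and other genes were close for any construct (85.7% against 86.5%), and near each other for BHLHB8-HA (80% against 76.5%) and for RHOX11-HA (34.3%, interval 19.1 to 52.2, against 30.4%). TEAD1-HA was at 25.7% against 40.6%. Among genes with no such neighbour, RHOX11-HA was at 18 of 58 members (31%) against 8.14%, BHLHB8-HA at 70.7% against 42.4% and TEAD1-HA at 15.5% against 30.9%. The neighbours include Gabpa, the DNA-binding subunit of GABP, opposite Atp5j, Timm8b opposite Sdhd and Mrpl47 opposite Ndufb5.

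RefSeq promoter sequences were matched for 76 of the 93 members and 16783 of the other genes. An NRF1 match was present in 12 members (15.8%, interval 8.43 to 26) against 3.69% of the other promoters, an ETS match in 17 (22.4%, interval 13.6 to 33.4) against 12.2%, and a YY1 match in 7 (9.21%, interval 3.78 to 18.1) against 1.98%. At least 1 of these 3 motifs was present in 39.5% of the members and 16.6% of the other promoters. SP1 was found in 35 members (46.1%) against 47.9%, the E-box in 6 (7.89%) against 8.1%, CRE in 4 (5.26%) against 2.41%, AP-1 in 5 (6.58%) against 4.59% and TEAD in 8 (10.5%) against 13.2%. Over all 16859 matched promoters, members included, the shares were 3.74% for NRF1, 12.2% for ETS, 2.01% for YY1, 47.9% for SP1, 8.1% for the E-box, 2.42% for CRE, 4.6% for AP-1 and 13.2% for TEAD.

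The motifs were then set against the peaks. All 7 members with a YY1 match had a BHLHB8-HA peak (12.3% of 57, against 0 of 19 members without one), and for the other genes the shares were 3.35% and 0.683%. NRF1 matches were found in 2 of 26 members with a RHOX11-HA peak and in 10 of 50 without one, and in 5.77% and 3.41% of the other promoters. ETS matches were found in 6 of 26 and 11 of 50, and in 29.5% and 9.81% of the other promoters. A TEAD match was found in 1 of 14 members with a TEAD1-HA peak and in 7 of 62 without one, and in 10.6% and 14.4% of the other promoters. The numbers of members in these classes are small.

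Other genes of mitochondrial and general cell function were counted in the same way. RHOX11-HA had promoter peaks at 30 of 78 genes for mitochondrial ribosomal proteins (38.5%), 17 of 39 for proteasome subunits (43.6%), 6 of 17 of the pyruvate dehydrogenase and tricarboxylic acid cycle enzymes (35.3%) and 13 of 36 further assembly factors of the chain (36.1%). All 4 lie above its background of 11.1% and near the 32.3% of the respiratory chain genes, so the high share of RHOX11-HA was not limited to the chain. BHLHB8-HA was likewise at 88.5%, 76.9%, 88.2% and 83.3% of these lists. TEAD1-HA was at 28.2% of the mitochondrial ribosomal (interval 18.6 to 39.5) and 23.1% of the proteasome genes (interval 11.1 to 39.3), at 47.1% of the cycle enzymes (interval 23 to 72.2) and at 36.1% of the assembly factors (interval 20.8 to 53.8). These intervals include its background of 32.2%. Among the assembly factors, Cox15, which makes haem A for complex IV, had peaks of 9 constructs.

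Outside the symbol rule, Cycs, which encodes cytochrome c, had peaks of BHLHB8-HA, EBF1-HA and RHOX11-HA. Cyc1, which encodes cytochrome c1 of complex III, had peaks of BHLHB8-HA and TEAD1-HA. Of 14 genes for known transcriptional regulators of the chain, 12 had a promoter peak of BHLHB8-HA, 9 of TEAD1-HA (64.3%, interval 35.1 to 87.2) and 7 of RHOX11-HA. The backgrounds of these constructs were 46.9%, 32.2% and 11.1%. Nrf1 had peaks of BHLHB8-HA and TEAD1-HA, Gabpa of RHOX11-HA and TEAD1-HA, Yy1 of BHLHB8-HA, RHOX11-HA, TEAD1-HA and TOX3-HA, and Tfam, the mitochondrial transcription and packaging factor, of BHLHB8-HA only. Ppargc1a, the coactivator PGC-1α, had none.

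**Figure D5:**
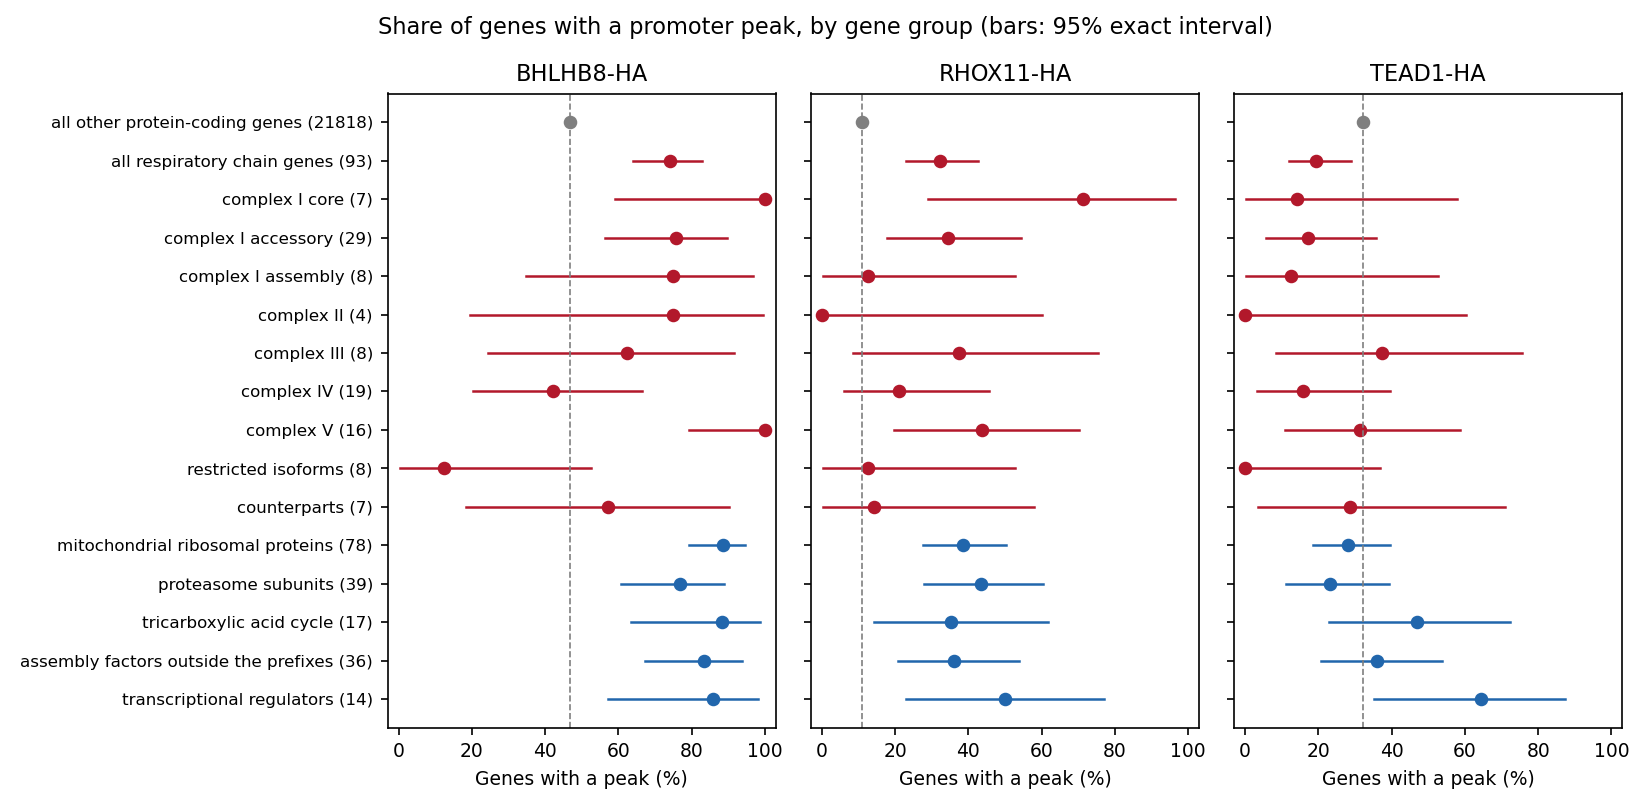
Share of genes with a promoter peak in percent, with 95% exact intervals, by gene group (number of genes in brackets), in 1 panel each for BHLHB8-HA, RHOX11-HA and TEAD1-HA. The dashed line is the share of all other protein-coding genes, 46.9%, 11.1% and 32.2%, and complex V stands at 100% for BHLHB8-HA.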

How the data were processed

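ChIP-seq peak lists of 24 HA-tagged constructs in NIH-3T3 cells were analysed. Per the labels and the study's methods, the authors aligned paired-end reads to mm10 with STAR 2.5.3a, kept unique alignments, removed duplicates with Picard, and called peaks per sample with MACS2 2.1.1.20160309, and dropped those over blacklisted regions or peaks of the input. The deposited files hold chromosome, start and end in bp and no score, so depth and calling strength are unknown and precision is limited by the number of peaks. Input chromatin was not analysed here.

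Transcript starts were taken from GENCODE vM21 on GRCm38, the assembly of mm10, and 0 peaks ran past a chromosome end. Gene records sharing a symbol and chromosome were pooled, as for Atp5o. Coordinates count from 1. Groups and replicates came from the labels. Nothing was tested for significance, because 20 of 24 constructs had 1 library. Shares carry exact (Clopper-Pearson) 95% intervals from SciPy 1.17.1, with Python 3.11.15, NumPy 2.4.6 and Matplotlib 3.10.9. Counting was checked on simulated peaks. Promoter sequences came from RefSeq, matched by symbol or synonym, and the entry nearest the 5′ end of the gene was used.

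Named were the 10 members with peaks of most constructs (ties by number of peaks, then symbol), the complex II genes, the restricted isoforms with their counterparts, the complex I core, and the members of constructs found at 1 to 3 of them. The values of 1 member are counted but not reported here. Promoters were printed for the first 3, Sdhb and the first 2 restricted isoforms without a peak that had an entry. All further genes were named with their values in view. The rule for members uses symbols only, but it and the lists were chosen with earlier results of these data known.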

Additional observations from a re-analysis of the deposited data

How the results depend on the processing

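The shares of BHLHB8-HA and RHOX11-HA stayed above and that of TEAD1-HA stayed below the background in every alternative run for them (16, 14 and 14). With another gene's start within 1 kb, however, the gap was only 3.54 percentage points for BHLHB8-HA and 3.89 for RHOX11-HA. Across the 132 alternatives in all, 101 left the members' share within its error and direction, 15 moved it and 16 turned the direction of the difference. The error was the SD between the duplicate lists for BHLHB8-HA and SOX2-HA. For all other results it was the exact interval of the main share, so the counts mix unlike measures. These counts do not judge the size of the difference. The comparisons by CpG-rich or other starts for any construct, by starts that are not CpG-rich, by neighbouring starts, by number of annotated starts, and without BHLHB8-HA were chosen after seeing the data.

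Without BHLHB8-HA, 59.1% of members against 50.4% of other genes had a peak of any construct, and 14% against 12.5% had peaks of 3 or more. With peaks of at least 300 bp, RHOX11-HA was at 14% against 4.9%, peaks of 3 or more constructs at 12.9% against 11.4%, DLX1-HA turned to 4.3% against 5.61% and SOX2-HA to 1.08% against 2.21%. With midpoints within 5 kb, any construct was at 91.4% against 73.7%, 3 or more at 41.9% against 38.2%, and DLX6-HA (12.9% against 14.9%), DUXBL-HA (11.8% against 12.5%) and SOX2-HA (11.8% against 14.2%) turned. Among starts that are not CpG-rich, any construct was at 69.2% against 41.7%, BHLHB8-HA at 56.4%, TEAD1-HA at 5.13%, and DLX1-HA turned to 7.69% against 8.43%. Among CpG-rich starts, any construct was at 92.6%, TEAD1-HA at 29.6%, and DLX6-HA turned to 7.41% against 10.9%. With another gene's start within 1 kb, any construct turned to 85.7% against 86.5% and DLX1-HA to 17.1% against 21.4%. In that class BHLHB8-HA was at 80% against 76.5% and RHOX11-HA at 34.3% against 30.4%. Among genes with 1 annotated start, BHLHB8-HA was at 60% against 36.7%, TEAD1-HA at 11.4% against 24.2%, and DUXBL-HA turned to 2.86% against 2.91%. DUXBL-HA also turned with 1 start per gene (3.23% against 3.26%) and within 500 bp (2.15% against 2.7%). Among genes with a peak of another construct, DLX1-HA (20.8% against 21.4%), DLX6-HA (11.7% against 13.1%) and SOX2-HA (7.89% against 8.03%) turned. The causes of these turns were not tested.

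Leaving out either replicate of the duplicated factors gave 52.7% to 71% for BHLHB8-HA, 0% to 7.53% for SOX2-HA, 74.2% to 81.7% for any construct and 28% to 30.1% for 3 or more. SOX2-HA turned without replicate 1 (0% against 0.839%). No paired analysis was possible because the results come from no test and only 4 constructs have replicate numbers. Peak numbers differ over a wide range between lists of unknown depth, so shares are to be read against the background of their own list.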
